A study of Mus musculus with 114 samples.

Results

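Adipocytes are post-mitotic cells, and the genes that hold a cell outside the division cycle were followed here in fat cells of mice on a long high fat diet. The set has 10 genes of the 29132 listed, taken by name. It holds 4 cyclin-dependent kinase inhibitors (Cdkn1a, Cdkn1c, Cdkn2a and Cdkn2c), the 3 D-type cyclins (Ccnd1, Ccnd2 and Ccnd3), p53 itself (Trp53), its ubiquitin ligase Mdm2 and the secreted stress factor Gdf15. RNA was sequenced from the adipocyte fraction of perigonadal fat of 38 male C57BL/6 mice (C57BL/6J in the study's methods), which were 6 weeks old at the start and then ate chow (the CD groups) or a high fat diet (the HFD groups) for 8, 20 or 34 weeks. There were 6 mice in each group and 8 in the CD group at 34 weeks, and all were intact animals with no transgene. The adipocytes were the cells that floated after collagenase digestion, and other cells in that fraction were not removed by any sort named in the labels. Each mouse was sequenced in 3 technical replicates that the authors merged, which leaves the mouse as the replicate.

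In textbook terms, mitogens raise the D-type cyclins, which pair with Cdk4 and Cdk6 and phosphorylate the retinoblastoma protein to let E2F factors start DNA synthesis. The INK4 inhibitors p16INK4a (from Cdkn2a) and p18INK4c (from Cdkn2c) bind those kinases directly, while the CIP/KIP inhibitors p21 (from Cdkn1a) and p57 (from Cdkn1c) bind cyclin and kinase together. p53 is held low by Mdm2, which is itself a p53 target, as are Cdkn1a and Gdf15, and p19ARF, the second product of Cdkn2a, binds Mdm2. In obese fat, Cdkn1a, Cdkn2a and p53 are known as markers of stress and senescence, and Gdf15 is also induced by the integrated stress response.

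The values are in CPM, the reads of a gene scaled to a total of 1000000 reads on the listed genes of that mouse. The mice had between 9275711 and 15480388 such reads, with a median of 12522298. At 8 weeks every HFD library was deeper than every CD library, at 13201234 to 15480388 against 10562845 to 12611013 reads. Differences were taken on the log2(CPM + 1) scale with limma in 1 fit of all mice, with Benjamini-Hochberg adjustment over the 10343 genes whose mean log2(CPM + 1) was at least 2.0, and a gene was called at an adjusted p under 0.05. Of the 10 genes, 9 passed that filter and Cdkn2a did not. The adipocyte genes Adipoq and Plin1 were high in every mouse, at 2068 CPM or more and 666 CPM or more. The summed CPM of 11 macrophage markers was 358 to 1745 in CD and 1082 to 3140 in HFD mice at 8 weeks, 964 to 3355 and 4521 to 9295 at 20 weeks, and 1154 to 12835 and 5273 to 15767 at 34 weeks. Between 7 and 11 of these markers were called higher in HFD at each time and 0 lower, and none of the markers was at 0 in all mice of a group. Markers of other cell types were also called higher in HFD at 8, 20 and 34 weeks, with 6, 5 and 6 of 6 endothelial, 4, 6 and 4 of 6 progenitor and fibroblast, and 5, 4 and 3 of 6 mural markers, and 0 of them lower. The part of these cell types in the results was not tested. Of 8 adipocyte markers, 0, 5 and 6 were called lower in HFD at the 3 times and 1, 1 and 0 higher. The p-values measure the spread between these mice. In such bulk samples, fewer cells of a type and less RNA per cell cannot be told apart.

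The promoters are shown because p53 acts through sequence, and because its regulators and targets moved in different ways below. RefSeq windows of the GRCm38.p6 build, from 250 bases before to 50 bases after a start site, were at hand for 7 of the 10 genes and were searched on both strands for the p53 half-site consensus and for TGATGNAA, the composite element that ATF4 binds. A half-site was in the windows of Mdm2, Trp53 and the upstream start of Cdkn1a, which are printed with the matches in capitals, and 8.36% of 32851 promoter windows hold one. The windows are chr17:29090729-29091028 on the plus strand, chr10:117710709-117711008 on the minus strand and chr11:69580109-69580408 on the plus strand, each printed 5′ to 3′ in the gene's direction.
Cdkn1a: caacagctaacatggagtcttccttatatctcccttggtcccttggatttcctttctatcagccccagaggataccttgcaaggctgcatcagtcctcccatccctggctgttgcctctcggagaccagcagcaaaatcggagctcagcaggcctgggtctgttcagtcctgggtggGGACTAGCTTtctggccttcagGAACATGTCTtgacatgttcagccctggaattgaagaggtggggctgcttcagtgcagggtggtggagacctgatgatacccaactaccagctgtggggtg
Mdm2: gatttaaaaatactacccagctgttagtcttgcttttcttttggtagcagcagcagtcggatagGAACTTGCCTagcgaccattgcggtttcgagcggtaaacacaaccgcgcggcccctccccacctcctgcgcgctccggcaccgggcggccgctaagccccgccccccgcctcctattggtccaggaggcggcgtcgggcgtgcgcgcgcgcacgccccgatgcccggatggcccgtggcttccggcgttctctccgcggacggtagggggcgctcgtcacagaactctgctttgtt
Trp53: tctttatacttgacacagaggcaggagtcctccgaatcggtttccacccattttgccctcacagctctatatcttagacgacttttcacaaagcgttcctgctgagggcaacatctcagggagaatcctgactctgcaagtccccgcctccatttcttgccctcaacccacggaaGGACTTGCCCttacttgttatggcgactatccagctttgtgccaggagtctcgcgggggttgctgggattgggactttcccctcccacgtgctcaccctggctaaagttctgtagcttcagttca
Counted from the start site, the matches begin at −73 and −51 in the Cdkn1a window, at −186 in that of Mdm2 and at −75 in that of Trp53. Ccnd1, Ccnd2 and Cdkn1c are named only. TGATGNAA was in 0 of the windows of these genes and in 3.97% of all windows. A match is a description of letters and no evidence of binding.

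Per kilobase of exon, the levels over all mice were highest for Cdkn2c, at 59.2 ± 21.8 CPM per kb (SD, n = 38), and for Cdkn1a, at 52.0 ± 36.4. They were followed by Gdf15 at 37.0 ± 31.7, Ccnd2 at 34.8 ± 8.30, Mdm2 at 23.4 ± 10.7, Ccnd3 at 12.0 ± 2.69, Trp53 at 8.28 ± 2.43, Cdkn1c at 5.91 ± 2.54, Ccnd1 at 4.03 ± 5.02 and Cdkn2a at 1.13 ± 0.912. Of the 9 pairs of neighbours in this order, the gap between means was above the larger SD of the pair for Ccnd2 and Mdm2, for Mdm2 and Ccnd3 and for Ccnd3 and Trp53, and within it for the others. Gdf15 exceeded Ccnd2 in 15 of the 38 mice, against 32 of 38 in which Cdkn1a exceeded Gdf15. The order also depended on the group, since per kb Cdkn1a stood at 15.4 CPM in CD mice at 8 weeks and at 104 in HFD mice at 20 weeks, while Cdkn2c stood at 53.4 and 40.8.

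**Figure D1:**
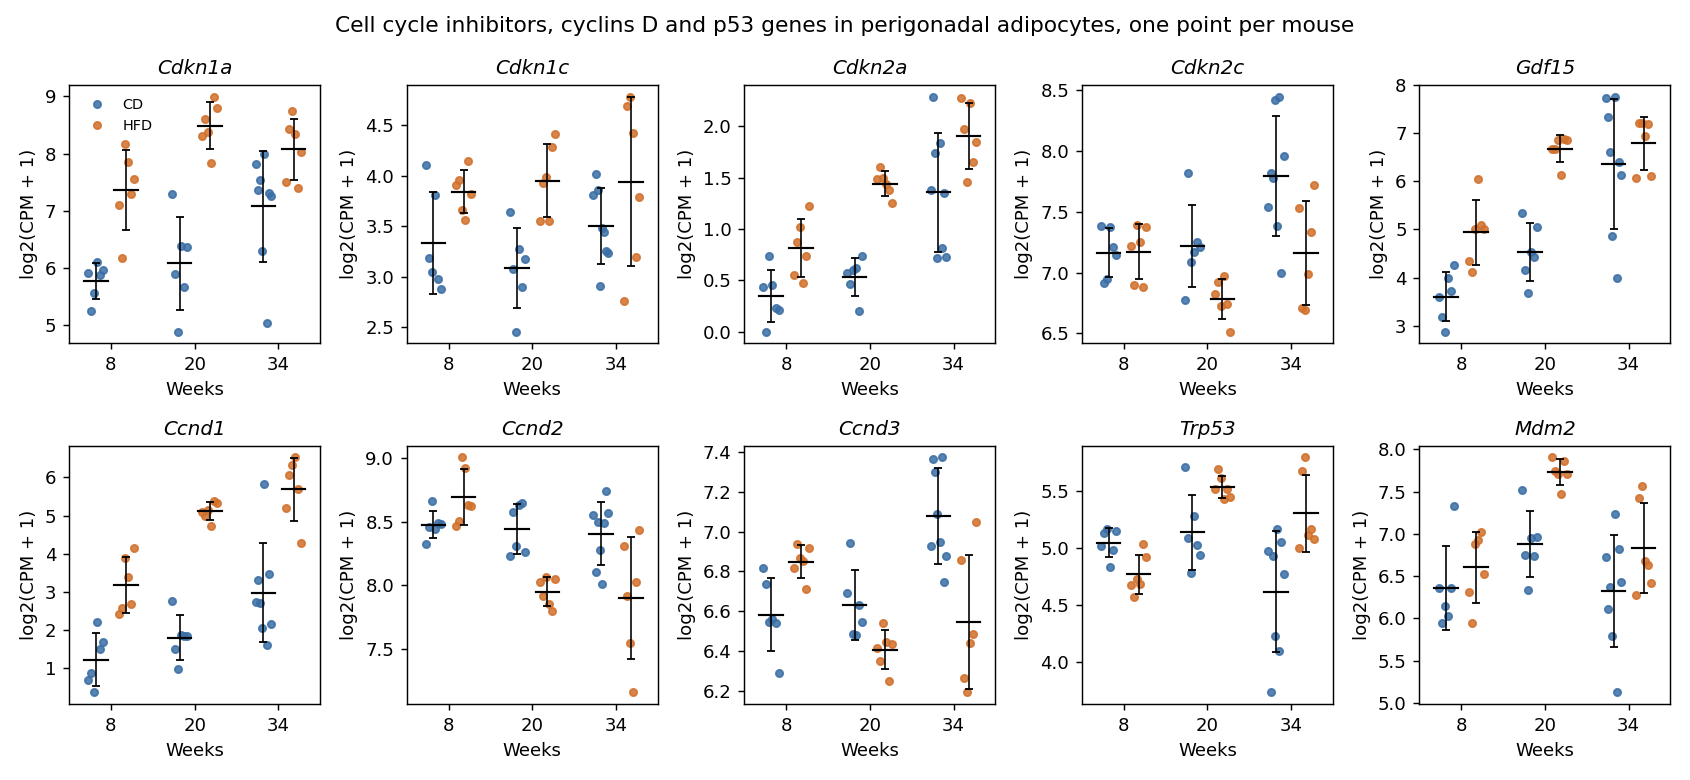
Levels of the 10 genes as log2(CPM + 1) against weeks on diet, with each point a mouse (CD blue, HFD orange; 6 mice per group, 8 in CD at 34 weeks), the bar the mean and the whisker ± 1 SD. HFD and CD points do not overlap for Cdkn1a and Ccnd1 at 8 and 20 weeks, and the CD points spread widely at 34 weeks.

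Of the 9 tested genes, 3 were called at 8 weeks, all higher in HFD (Cdkn1a, Ccnd1 and Gdf15), and 0 of the 9 were lower. Of all genes tested, 44.9% were called at that time, with 29.8% of all genes higher and 15.1% of all genes lower in HFD. At 20 weeks 6 were called, against 57.0% of all genes. Of these, 5 were higher (38.3% of all genes) and 1 was lower (18.7%). At 34 weeks 6 were called, against 43.2% of all genes, with 3 higher (27.5%) and 3 lower (15.7%). The count of members was below the background share at 8 weeks and above it at 20 and 34 weeks, each time by so few genes that nothing particular to the set is read from it. The HFD and CD mice did not overlap for 2 of the 9 genes at 8 weeks (22.8% of all genes), for 4 at 20 weeks (37.2%) and for 0 at 34 weeks (2.46%). The median difference of the 9 genes was 0.27, 0.85 and 0.44 on the log2 scale, beside 0.11, 0.14 and 0.07 for all genes tested. Scaling the libraries by TMM, a method that balances the bulk of genes, brought the medians of all genes to 0.01, −0.07 and −0.01. It turned the 3083 higher and 1565 lower genes at 8 weeks into 2332 and 2212, the 3957 and 1937 at 20 weeks into 2711 and 3358, and the 2840 and 1628 at 34 weeks into 2317 and 2150.

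**Figure D2:**
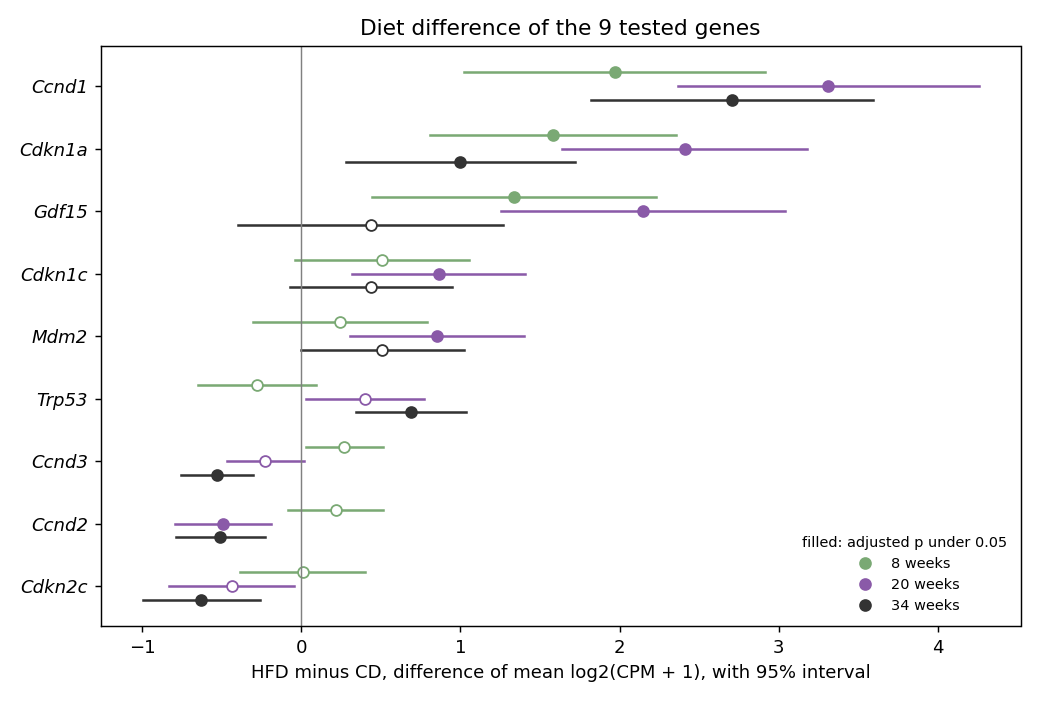
Diet difference (HFD minus CD, log2(CPM + 1), x axis) of the 9 tested genes at 8, 20 and 34 weeks (by colour), as the estimate with its 95% interval from limma, filled where the adjusted p was under 0.05. Ccnd1 and Cdkn1a lie above 0 at each time, and Ccnd2, Ccnd3 and Cdkn2c lie below 0 at 20 and 34 weeks.

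Cdkn1a, which encodes the cell cycle inhibitor p21, was the inhibitor with the largest response to HFD. It lies at chr17:29090976-29100727 on the plus strand (GRCm38). At 8 weeks it ranged from 36.9 to 67.6 CPM in CD mice (median 58.6) and from 71.0 to 287 in HFD mice (median 172). At 20 weeks the CD mice held 28.5 to 156 CPM (median 70.0) and the HFD mice 227 to 509 (median 361). All 6 HFD mice were above all CD mice at both times. At 34 weeks the ranges met, at 31.9 to 254 CPM in CD (median 160.1) and 167 to 428 in HFD (median 293). The difference was 1.58 ± 0.38 (SE) at 8 weeks (adjusted p = 0.00133), 2.41 ± 0.38 at 20 weeks (adjusted p = 3.28e-06), a 5.31-fold rise, and 1.00 ± 0.36 at 34 weeks (adjusted p = 0.0226). The call at 34 weeks rested on single mice: without CD mouse 4, CD mouse 6, HFD mouse 2 or HFD mouse 3 of that time the adjusted p was between 0.0511 and 0.0706. CD mice 4 and 6 were the lowest of their group, at 77.5 and 31.9 CPM. Array weights, which limma takes from the scatter of each mouse around its group mean, brought the difference to 0.37 (adjusted p = 0.365). No measure of RNA quality enters these weights. A fit of the mice of 34 weeks alone left the difference at 1.00 with an adjusted p of 0.0800. The fall of the diet difference from 20 to 34 weeks was −1.41 ± 0.52 with an adjusted p of 0.0742 for the interaction.

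Gdf15, a circulating stress hormone of the TGF-beta superfamily that lowers appetite through its hindbrain receptor, rose in both HFD and long-fed CD mice. It lies at chr8:70629393-70632456 on the minus strand. At 8 weeks it stood at 6.34 to 18.1 CPM in CD mice (median 11.7) and 16.4 to 64.8 in HFD mice (median 31.3). At 20 weeks it stood at 11.8 to 39.3 CPM in CD (median 21.4) and 69.6 to 117 in HFD (median 108), with no overlap. At 34 weeks the CD mice spread from 15.0 to 216 CPM (median 90.5) around the HFD mice, which ran from 66.4 to 147 (median 134). The diet difference was 1.34 ± 0.44 at 8 weeks (adjusted p = 0.0138), 2.15 ± 0.44 at 20 weeks (adjusted p = 0.000104) and 0.44 ± 0.41 at 34 weeks (adjusted p = 0.400), with a 95% interval of −0.40 to 1.27 at the last time. At 34 weeks 3 CD mice, numbers 1, 2 and 5, exceeded every HFD mouse of any time, at 212, 161 and 216 CPM. Gdf15 thus rose by 2.75 ± 0.41 from 8 to 34 weeks in CD mice (adjusted p = 1.13e-06), a 6.74-fold rise, and by 1.85 ± 0.44 in HFD mice (adjusted p = 0.000711). The test of whether the diet difference changed from 20 to 34 weeks gave −1.71 ± 0.60 (adjusted p = 0.0595).

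Cdkn1c, which encodes p57, an imprinted inhibitor that is expressed from the maternal allele, was called in 1 of the 3 diet comparisons. It lies at chr7:143458339-143461050 on the minus strand. At 20 weeks it ranged from 4.49 to 11.5 CPM in CD (median 7.73) and from 10.7 to 20.2 in HFD mice (median 14.5), with 6 of 6 HFD mice above the CD mean and ranges that met. The difference was 0.86 ± 0.27 (adjusted p = 0.0067). At 8 weeks it was 0.51 with an interval of −0.04 to 1.05 (adjusted p = 0.121). At 34 weeks it was 0.44 with an interval of −0.07 to 0.95 (adjusted p = 0.154). HFD mice at 34 weeks were the most variable group, from 5.79 CPM in mouse 1 to 26.5 in mouse 3, and without mouse 1 the difference was 0.67 (adjusted p = 0.0202).

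Cdkn2a, the INK4a/ARF locus whose p16INK4a is a widely used mark of senescent cells, was close to the lower end of detection. It lies at chr4:89274471-89294653 on the minus strand, and gene-level counts cannot separate p16INK4a from p19ARF. The CD mice at 8 weeks held between 0 and 7 reads each, or 0 to 0.663 CPM (median 0.262), and the HFD mice 6 to 19 reads, or 0.388 to 1.33 CPM (median 0.749). At 20 weeks the ranges were 0.146 to 0.670 CPM in CD and 1.38 to 2.03 in HFD, and no mouse overlapped. At 34 weeks they were 0.643 to 3.88 CPM in CD and 1.74 to 3.83 in HFD. As it was below the filter, an exact permutation test of the mean log2(CPM + 1) was used, two-sided and adjusted over its 3 times. The difference was 0.47 at 8 weeks (exact permutation p = 0.0108, adjusted p = 0.0162, n = 6 and 6), 0.91 at 20 weeks (exact permutation p = 0.00216, the smallest this design allows, adjusted p = 0.00649, n = 6 and 6) and 0.55 at 34 weeks (exact permutation p = 0.0593, adjusted p = 0.0593, n = 8 CD and 6 HFD). In the limma fit of all genes without the filter the adjusted p was 0.0787, 0.000337 and 0.0248, so that the calls at 8 and 34 weeks traded places with the test. With 3 reads as the floor of a count of 0, the limit in a CD mouse at 8 weeks was at most 0.284 CPM, and this covers counting error only. The CD mice at 8 weeks were also the shallower ones.

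Cdkn2c, which encodes p18INK4c and rises in the textbook account as preadipocytes leave the cycle and differentiate, moved the other way. It lies at chr4:109660876-109667189 on the minus strand. At 8 weeks the diets held alike ranges of 119 to 166 CPM in CD and 117 to 167 in HFD, and the difference of 0.01 had an interval of −0.39 to 0.40 and turned negative with TMM scaling (−0.10). At 20 weeks the CD mice stood at 109 to 225 CPM and the HFD mice at 90.4 to 125, a difference of −0.44 ± 0.19 (adjusted p = 0.0528). With TMM scaling that value was −0.65 (adjusted p = 0.00924), and it also passed at the same size of −0.44 in a fit of the mice of 20 weeks alone (adjusted p = 0.0161) and with array weights at −0.53 (adjusted p = 0.000211), so the call depended on the setting. At 34 weeks the CD mice stood at 127 to 348 CPM (median 222) and the HFD mice at 102 to 209 (median 143), a difference of −0.63 ± 0.18 (adjusted p = 0.00577) with 6 of 6 HFD mice below the CD mean. That call was lost with array weights, at −0.41 (adjusted p = 0.0592), and in a fit of the mice of 34 weeks alone, at −0.63 (adjusted p = 0.0644). Within CD mice Cdkn2c rose by 0.63 ± 0.18 from 8 to 34 weeks (adjusted p = 0.00305), while in HFD mice the change was −0.01 with an interval of −0.40 to 0.38.

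Ccnd1, the cyclin that growth factors and matrix adhesion induce, had the largest diet difference of the set. It lies at chr7:144929931-144939925 on the minus strand, and 1100 of its exon bases also belong to a gene on the other strand, LTO1. Cdkn1a, Cdkn1c, Ccnd2 and Ccnd3 also overlap genes on the other strand, and as the counting's use of strand is not given in the sources used here, reads of such pairs cannot be told apart. At 8 weeks the CD mice held 0.284 to 3.61 CPM (median 1.31) and the HFD mice 4.34 to 16.6 (median 7.44). At 20 weeks the CD mice held 0.957 to 5.81 CPM (median 2.58) and the HFD mice 25.5 to 40.5 (median 33.5). The diets did not overlap at either time. At 34 weeks 7 of the 8 CD mice were at or below 10.1 CPM, CD mouse 5 stood at 55.4, and the HFD mice ran from 18.5 to 90.9 (median 58.6). The difference was 1.97 ± 0.47 at 8 weeks (adjusted p = 0.00117), 3.31 ± 0.47 at 20 weeks (adjusted p = 6.67e-07), a 9.92-fold rise, and 2.70 ± 0.44 at 34 weeks (adjusted p = 3.5e-05). In CD mice alone it rose by 1.77 ± 0.44 from 8 to 34 weeks (adjusted p = 0.000723), and its rise from 20 to 34 weeks of 1.18 (adjusted p = 0.0184) was 0.78 with an adjusted p of 0.0531 without CD mouse 5 of 34 weeks.

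Ccnd2 was the most abundant cyclin D of these cells, and it fell with HFD. It lies at chr6:127125162-127152193 on the minus strand. At 8 weeks it ranged from 320.3 to 404 CPM in CD (median 354) and from 353 to 513 in HFD (median 395), a difference of 0.22 with an interval of −0.08 to 0.52. At 20 weeks all HFD mice, at 222 to 267 CPM (median 249.9), lay below all CD mice, at 300.2 to 399.5 (median 349). At 34 weeks the CD mice stood at 257 to 428 CPM (median 360.2) and the HFD mice at 142 to 346 (median 250.1). The difference was −0.49 ± 0.15 at 20 weeks (adjusted p = 0.00506) and −0.51 ± 0.14 at 34 weeks (adjusted p = 0.00381). Within the HFD mice the level fell by 0.74 on the log2 scale from 8 to 20 weeks (adjusted p = 0.000377), and within the CD mice the change over that span was −0.03 with an interval of −0.33 to 0.26.

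Ccnd3, the cyclin D with a described part in adipocyte differentiation through PPARgamma, followed the same order late. It lies at chr17:47505051-47599691 on the plus strand. At 8 weeks the CD mice held 77.1 to 112 CPM and the HFD mice 104 to 122, a difference of 0.27 ± 0.12 (adjusted p = 0.0648). At 20 weeks they held 88.4 to 122 and 75.0 to 92.1 CPM, a difference of −0.23 ± 0.12 (adjusted p = 0.106) that TMM scaling moved to −0.44 (adjusted p = 0.00425). At 34 weeks they held 106 to 165 and 72.0 to 131 CPM, a difference of −0.53 ± 0.11 (adjusted p = 0.000456) with all 6 HFD mice below the CD mean. The diet difference changed from 8 to 34 weeks by −0.80 ± 0.16 for Ccnd3 (adjusted p = 0.000543) and by −0.72 ± 0.20 for Ccnd2 (adjusted p = 0.00741).

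The make-up of the cyclin D reads differed between the diets. These are shares of reads with no correction for gene length, and not shares of transcripts. Ccnd1 also followed the macrophage markers within groups (r = 0.87, given below), and their part in the shares was not tested. Of the summed CPM of the 3 genes, Ccnd1 took 0.350% ± 0.283 (SD, n = 6) in CD and 1.65% ± 0.865 (n = 6) in HFD mice at 8 weeks, which was a difference of 1.30 percentage points (exact permutation p = 0.00216, adjusted over 9 tests p = 0.00649, two-sided). At 20 weeks it took 0.621% ± 0.419 and 9.30% ± 1.57 (exact permutation p = 0.00216, adjusted p = 0.00649, n = 6 and 6). At 34 weeks it took 2.57% ± 4.14 and 15.6% ± 9.43 (exact permutation p = 0.00666, adjusted p = 0.0150, n = 8 and 6), and CD mouse 5, at 12.7%, was the CD mouse with the highest share. The share of Ccnd2 at 20 weeks was 77.4% ± 2.88 in CD and 67.7% ± 1.07 in HFD (exact permutation p = 0.00216, adjusted p = 0.00649, n = 6 and 6). Its difference of −8.69 points at 34 weeks did not pass (exact permutation p = 0.0719, adjusted p = 0.129). The 3 shares make up a whole, so a higher share of Ccnd1 lowers the others, and these tests are not separate support. The share of Ccnd3 differed by 0.339, 1.02 and −4.35 points at the 3 times, with adjusted exact permutation p from 0.140 to 0.842. The sum of the 3 genes was 451 ± 51.2 CPM (n = 6) in CD and 365 ± 24.4 (n = 6) in HFD mice at 20 weeks, and this difference of the sums was not tested.

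**Figure D3:**
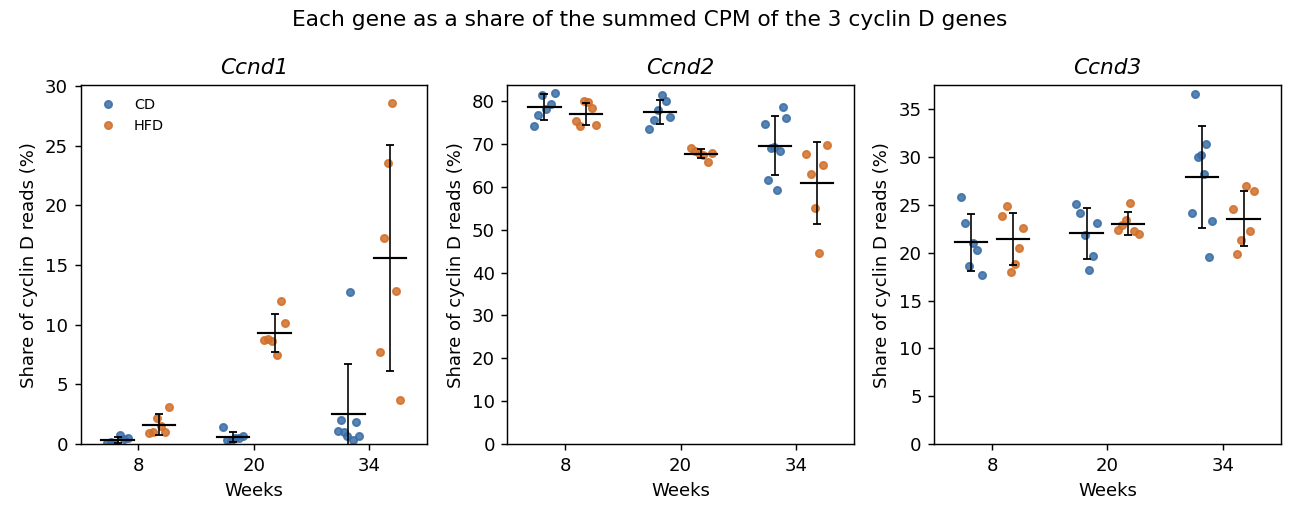
Share of each cyclin D gene in the summed CPM of Ccnd1, Ccnd2 and Ccnd3 (percent, y axis from 0) against weeks on diet, with each point a mouse (CD blue, HFD orange; 6 mice per group, 8 in CD at 34 weeks), the bar the mean and the whisker ± 1 SD. The Ccnd1 share of HFD mice reaches 7.47% to 12.0% at 20 weeks, above every CD mouse of that time.

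Trp53, the transcription factor at the centre of the pathway, was called between the diets at 34 weeks in the fit of all mice, and at the earlier times only under other settings. It lies at chr11:69580359-69591873 on the plus strand. At 8 weeks it ranged from 27.6 to 34.9 CPM in CD (median 32.8) and from 22.7 to 31.8 in HFD (median 25.1), and all 6 HFD mice were below the CD mean, a difference of −0.28 ± 0.18 (adjusted p = 0.208). At 20 weeks it ranged from 26.5 to 51.6 CPM in CD and from 42.1 to 50.7 in HFD, with a difference of 0.40 ± 0.18 (adjusted p = 0.0596). Fits of the mice of each time alone called both at the same size, with adjusted p of 0.0182 at 8 and 0.0167 at 20 weeks, and array weights called both, at −0.25 (adjusted p = 0.0438) and 0.46 (adjusted p = 9.31e-05). At 34 weeks it ranged from 12.3 to 35.0 CPM in CD (median 27.9) and from 31.1 to 54.6 in HFD (median 34.4), with a difference of 0.69 ± 0.17 (adjusted p = 0.00183), a 1.61-fold rise. The diet difference thus moved by 0.97 ± 0.25 from 8 to 34 weeks (adjusted p = 0.00408). Both diets had a part in it, as Trp53 fell by 0.43 on the log2 scale in CD mice over that span (adjusted p = 0.0269) and rose by 0.54 in HFD mice (adjusted p = 0.0134). The fall in CD mice was not called without CD mouse 3 of 8 weeks or without CD mouse 2, 4 or 6 of 34 weeks, with adjusted p between 0.0517 and 0.0840.

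Mdm2, the ubiquitin ligase that marks p53 for degradation, had its highest mean at 20 weeks in both diets. It lies at chr10:117688875-117710758 on the minus strand. The CD means were 86.1, 120 and 86.3 CPM at 8, 20 and 34 weeks, and the HFD means 99.5, 213 and 120. At 8 weeks the CD mice held 60.7 to 159 CPM (median 75.4) and the HFD mice 60.7 to 129.5 (median 104), a difference of 0.24 with an interval of −0.31 to 0.79. At 20 weeks the CD mice held 79.6 to 183 CPM (median 115) and the HFD mice 176 to 239 (median 210.5), so that only CD mouse 1 reached the HFD range. That difference was 0.85 ± 0.27 (adjusted p = 0.0074), a 1.81-fold rise. At 34 weeks the difference was 0.51 (adjusted p = 0.0993) and, without CD mouse 5, 0.64 (adjusted p = 0.0307). Within HFD mice Mdm2 rose by 1.13 ± 0.27 from 8 to 20 weeks (adjusted p = 0.00177). It then fell by 0.90 on the log2 scale from 20 to 34 weeks (adjusted p = 0.0121). It was the only gene of the 9 called in that last comparison, where 30.2% of all genes were called. Within CD mice the limma changes were 0.52 from 8 to 20 weeks (adjusted p = 0.321) and −0.55 from 20 to 34 weeks (adjusted p = 0.0551). No change of the Mdm2 diet difference between times was called in the fit of all mice.

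From 8 to 20 weeks in CD mice 0 of the 9 genes were called by limma, where 3.58% of all genes were, and array weights called Gdf15 at 1.01 and Mdm2 at 0.57 (adjusted p = 0.0193 and 0.0192). From 8 to 34 weeks 6 were called (Cdkn1a, Cdkn2c, Ccnd1, Ccnd3 and Gdf15 higher, Trp53 lower), against 64.7% of all genes, and from 20 to 34 weeks the same 6, against 62.5%, so both counts were near the background. With the macrophage marker mean as a covariate, the change from 8 to 34 weeks in CD mice was 0.07 for Cdkn1a (adjusted p = 0.878) and −0.07 for Ccnd1 (adjusted p = 0.853), and the other 4 calls remained. In HFD mice 7 were called from 8 to 20 weeks, against 36.5% of all genes, with Cdkn1a, Ccnd1, Trp53, Mdm2 and Gdf15 higher and Ccnd2 and Ccnd3 lower. From 8 to 34 weeks in HFD mice 5 were called, against 52.5% of all genes. The comparisons share their groups with the diet comparisons, so their values are given side by side and not as separate support. A change of the diet difference between times was called for 1 gene from 8 to 20 weeks (Ccnd2, −0.71 ± 0.21, adjusted p = 0.0454), against 4.49% of all genes, for 3 from 8 to 34 weeks (Ccnd2, Ccnd3 and Trp53), against 28.8%, and for 0 from 20 to 34 weeks, against 10.5%. The call of Ccnd2 from 8 to 20 weeks was narrow, and leaving out most single mice of those groups ended it, with adjusted p up to 0.0772. At an unadjusted p under 0.05 the comparison from 20 to 34 weeks held 2 of the 9 genes and the CD comparison from 8 to 20 weeks held 1. DESeq2 on the recovered reads called 2 and 0 of them, and edgeR 1 and 0, in that order.

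Several of these genes moved with the macrophage markers from mouse to mouse. How many of all genes do so was not counted, so nothing particular to the set is read from it. Taken as deviations from the mean of each diet and time group over 38 mice, the macrophage marker mean correlated with Ccnd1 at Pearson's r = 0.87 and Spearman's rho = 0.89, with Gdf15 at 0.77 and 0.77, with Cdkn1a at 0.71 and 0.71 and with Mdm2 at 0.69 and 0.60. The permutation p within groups was 1e-05 for both measures of the first 3 genes, the smallest that 100000 resamples can give, and 5e-05 and 0.00042 for Mdm2, with adjusted values over the 10 genes of 3.33e-05 for the first 3 and of 0.000125 and 0.00105 for Mdm2. Without the 2 mice farthest from the median of the marker deviation, r was 0.83, 0.73, 0.65 and 0.61. For the other 6 genes r lay between −0.36 and 0.34, with adjusted permutation p of 0.0868 or more. With 5 markers of lipid-associated macrophages in place of that list, Cdkn2c stood at r = −0.57 (adjusted permutation p = 0.00548) and Trp53 at r = 0.50 (adjusted permutation p = 0.0273), and the first 4 genes passed again. Within single groups r of Ccnd1 ran from 0.77 to 0.99 and was above 0 in each of the 6 groups, as it was for Cdkn1a, Gdf15 and Mdm2.

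**Figure D4:**
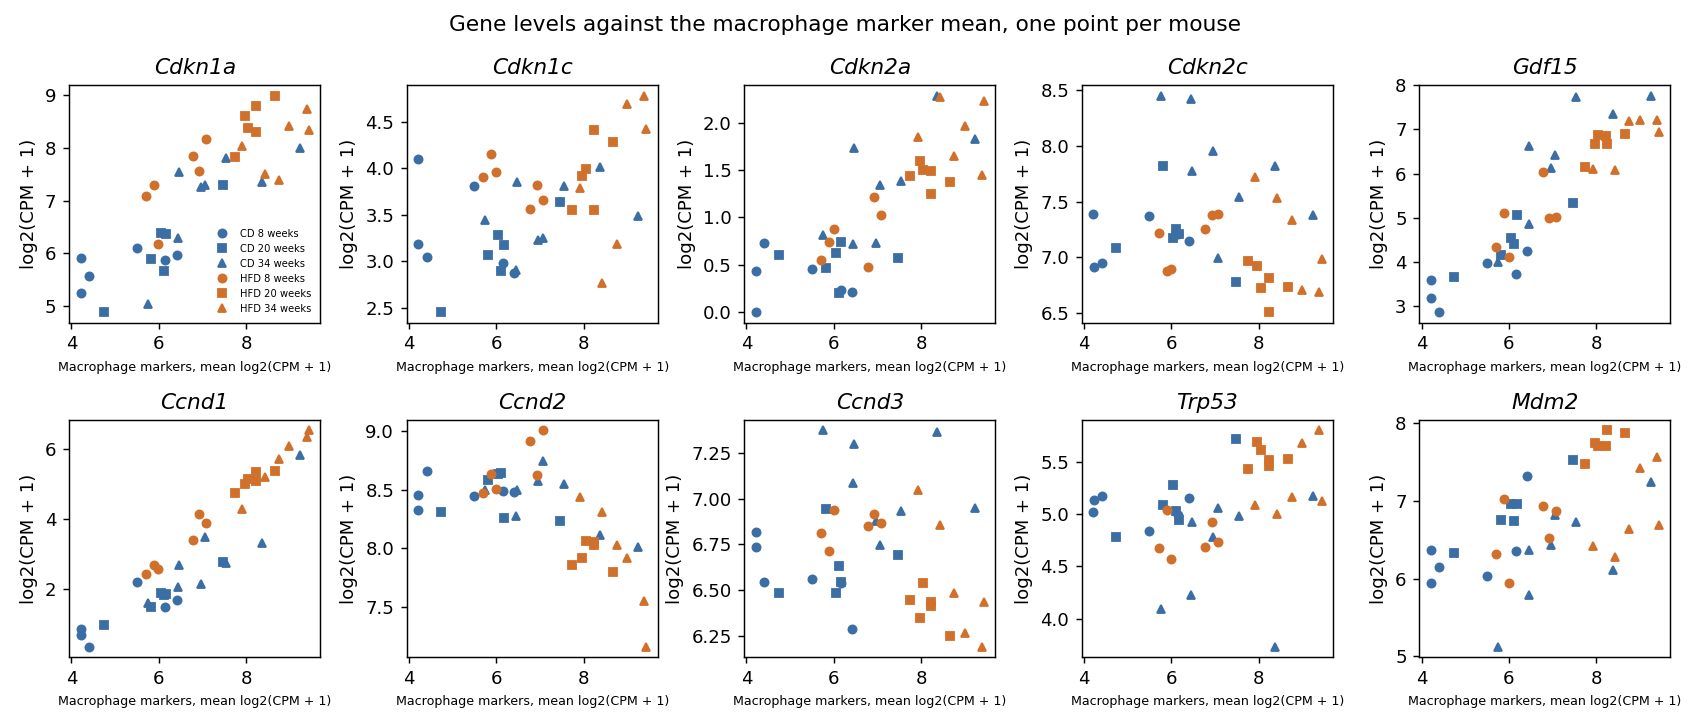
Level of each of the 10 genes (log2(CPM + 1), y axis) against the mean log2(CPM + 1) of 11 macrophage markers (x axis), with each point a mouse, coloured by diet and shaped by weeks on diet. Ccnd1, Gdf15, Cdkn1a and Mdm2 climb with the marker mean inside the groups, with r of 0.87, 0.77, 0.71 and 0.69 for the deviations from the group means.

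With the macrophage marker mean as a covariate in the fit, Ccnd1 remained called at all 3 times, at 0.87 (adjusted p = 0.00952), 1.47 (adjusted p = 0.000531) and 1.30 (adjusted p = 0.00214). Cdkn1a remained called at 8 weeks, at 0.85 (adjusted p = 0.0246), and at 20 weeks, at 1.17 (adjusted p = 0.00956), and stood at 0.06 at 34 weeks (adjusted p = 0.929). The other calls among the diet comparisons were lost, and Ccnd3 gained one at 8 weeks, at 0.38 (adjusted p = 0.0170). Gdf15 stood at 0.41, 0.60 and −0.74 (adjusted p from 0.140 to 0.304), and Mdm2 at 20 weeks at 0.01 (adjusted p = 0.984). Trp53 at 34 weeks stood at 0.50 (adjusted p = 0.109), Ccnd3 at −0.39 (adjusted p = 0.0502), Ccnd2 at −0.34 (adjusted p = 0.169) and Cdkn2c at −0.39 (adjusted p = 0.235). The changes of the diet difference from 8 to 34 weeks for Ccnd2, Ccnd3 and Trp53 kept adjusted p of 0.00689, 0.000402 and 0.00377. At 20 weeks the marker mean was 7.74 to 8.66 in HFD and 4.74 to 7.47 in CD mice, with no overlap. A call lost with the covariate at that time therefore cannot separate the diet from the marker level. The part of macrophage RNA in these levels was not tested by a direct measurement.

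The genes whose mouse-to-mouse pattern within groups was most like each member were found by Pearson's correlation of the deviations over 38 mice, as a description. For Cdkn1a they were Itgb1 (r = 0.90) and Tubb2a (0.90), an integrin subunit and a tubulin. For Mdm2 they were B4galt5 (0.96) and Itga5 (0.94), a galactosyltransferase and the fibronectin receptor subunit. For Gdf15 they were Stx3 (0.93) and Pik3r5 (0.92), and for Ccnd1 Kcnk13 (0.93) and Lmo2 (0.91). Cdkn2c was most like Mtch2 (0.88) and Dld (0.86), a mitochondrial carrier homologue and a subunit of mitochondrial dehydrogenases, and Trp53 was most like the amino acid transporter Slc38a2 (0.86) and Slc35f5 (0.85). Ccnd2 was most like the laminin receptor subunit Itga7 (0.80) and Syap1 (0.80), Ccnd3 like 1110065P20Rik (0.83) and Nudt19 (0.82), and Cdkn1c like Armcx2 (0.75) and Lmo7 (0.68).

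Of 26 further p53 target genes listed, 22 passed the filter. At 8 weeks 12 of them were higher and 3 lower in HFD, with a median difference of 0.56 beside 0.11 for all genes. At 20 weeks 10 were higher and 5 lower (median 0.31 beside 0.14), and at 34 weeks 3 were higher and 2 lower (median −0.07 beside 0.07). Over all genes tested, 29.8%, 38.3% and 27.5% were higher and 15.1%, 18.7% and 15.7% lower in HFD at the 3 times. These shares stand beside the counts of each list that follows. With the macrophage marker mean as a covariate, 8 were higher and 2 lower, 3 and 4, and 0 and 1 at the 3 times. That covariate also lowered the calls over all genes at 20 and 34 weeks, as given in a later section. Bax, Apaf1 and Pmaip1, and up to 3 genes of each later list, were named for the largest differences among genes called without overlap at 20 weeks. Their calls and lack of overlap at that time follow from this rule and are not separate support. The pro-apoptotic pore gene Bax ranged from 12.1 to 22.7 CPM in CD and 30.8 to 47.8 in HFD mice at 20 weeks, and its difference was 0.88, 1.38 and 0.57 at the 3 times (adjusted p = 0.00073, 8.7e-07 and 0.014). The caspase activator Apaf1 differed by 1.22, 1.86 and 1.15 (adjusted p = 0.0064, 4.8e-05 and 0.0064). Pmaip1, which encodes the BH3-only protein Noxa, differed by 1.42 and 1.12 at 8 and 20 weeks and by 0.48 at 34 weeks (adjusted p = 0.0049, 0.017 and 0.30). Other p53 targets were lower in HFD. The death receptor gene Fas, picked after its values were seen, was at 90.8 to 139 CPM in CD and 47.0 to 61.6 in HFD mice at 20 weeks (−0.99 ± 0.17, adjusted p = 1.28e-05). Its CD means were 53.7, 112 and 40.7 CPM at 8, 20 and 34 weeks, and its HFD means 51.5, 55.6 and 31.6. The gap at 20 weeks thus went with a higher CD level at that time. The DNA damage recognition gene Ddb2, picked in the same way, was at 9.94 to 15.5 CPM in CD and 5.49 to 9.93 in HFD mice at that time (−0.88 ± 0.15, adjusted p = 7.71e-06), and was also lower at 8 and 34 weeks.

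Of 14 p53 regulators and relatives, 11 were tested. The shares of all genes called higher and lower are those given for the p53 targets. In HFD 2 were higher and 4 lower at 8 weeks (median −0.25 beside 0.11), 1 higher and 0 lower at 20 weeks (0.18 beside 0.14), and 4 higher and 0 lower at 34 weeks (0.20 beside 0.07). With the macrophage covariate, 2 were higher and 5 lower, 1 and 0, and 0 and 0 by limma. The checkpoint kinase gene Chek2 differed by 1.14, 1.08 and 0.68 (adjusted p = 4.4e-05, 2.6e-05 and 0.0039). Mdm4, the partner of Mdm2 that blocks the p53 activation domain, differed by −0.72 at 8 weeks (adjusted p = 0.019) and by −0.44 and 0.04 at the later times (adjusted p = 0.13 and 0.91). The p53 homologue Trp63 was under the filter. It stood at 3.41 to 7.22 CPM in CD and 0.735 to 2.66 in HFD mice at 8 weeks and at 3.61 to 5.58 and 0.209 to 2.07 at 20 weeks, with no overlap at either time, and the fit without the filter gave −0.999 (adjusted p = 0.00318), −1.34 (adjusted p = 5.24e-05) and −0.42 (adjusted p = 0.204) at 8, 20 and 34 weeks. The third relative, Trp73, did not exceed 0.0933 CPM in any mouse.

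The other cyclin-dependent kinase inhibitors were tested for 3 of 4 genes. Cdkn1b (p27) was higher in HFD by 0.40 at 20 and 0.43 at 34 weeks (adjusted p = 0.033 and 0.021) and stood at −0.09 at 8 weeks (adjusted p = 0.67). Cdkn2b (p15), the neighbour of Cdkn2a, was higher by 0.73 at 8 weeks (adjusted p = 0.011), and the later differences were 0.53 (adjusted p = 0.05) and 0.19 (adjusted p = 0.49). Cdkn2d (p19INK4d) was higher by 0.60 at 8 weeks (adjusted p = 0.0014), with 0.31 and −0.10 later. With time in CD mice, Cdkn2b and Cdkn2d were higher by 1.10 and 1.07 at 34 than at 8 weeks (adjusted p = 6.5e-05 and 9.6e-08). Cdkn3 was under the filter, with at most 4.11 CPM. In the limma fit without the filter it differed by 0.35, 0.55 and 0.22 at 8, 20 and 34 weeks (adjusted p = 0.272, 0.0495 and 0.482).

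Of 18 genes of the G1 kinases, pocket proteins and E2F factors, 13 were tested, and 6 were higher and 1 lower in HFD at 8 weeks, 6 and 0 at 20 weeks, and 3 and 1 at 34 weeks, with medians of 0.17, 0.31 and 0.09 beside 0.11, 0.14 and 0.07 for all genes. With so few genes, nothing particular to this list is read from the counts beside the shares of all genes given for the p53 targets. With the macrophage covariate, 5 were higher and 2 lower, 5 and 0, and 1 and 0. Cdk6, a partner of the D-type cyclins, stood at 1.71 to 5.53 CPM in CD and 6.59 to 12.8 in HFD mice at 20 weeks and differed by 0.85, 1.64 and 1.14 (adjusted p = 0.026, 4.2e-05 and 0.0023). The other partner Cdk4 differed by −0.12, 0.31 and 0.37 (adjusted p = 0.49, 0.055 and 0.018). E2f1, the S-phase factor that the pocket proteins restrain, differed by 1.42, 1.52 and 0.38 (adjusted p = 1.1e-05, 9.5e-07 and 0.13), and E2f6, a repressive family member, by 0.73, 0.48 and −0.12 (adjusted p = 7.6e-05, 0.0025 and 0.45). Of the pocket proteins, Rbl1 differed by 0.15, 0.53 and 0.75 (adjusted p = 0.41, 0.0022 and 0.00011), Rb1 by 0.33, −0.01 and −0.02 (adjusted p = 0.023, 0.96 and 0.90) and Rbl2 by −0.01, −0.02 and −0.05 (adjusted p = 0.95, 0.87 and 0.65).

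Of 19 proliferation genes, 12 were tested, and 8 were higher and 1 lower in HFD at 8 weeks, 10 and 0 at 20 weeks, and 12 and 0 at 34 weeks. Over all genes, 29.8%, 38.3% and 27.5% were higher and 15.1%, 18.7% and 15.7% lower. The medians of the list were 0.82, 2.22 and 1.63, beside 0.11, 0.14 and 0.07 for all genes. At 20 weeks Mki67, the gene of the Ki-67 antigen, stood at 2.58 to 59.4 CPM in CD and 116 to 191 in HFD mice (3.41 ± 0.60, adjusted p = 1.5e-05). The S and G2 phase genes Top2a and Cdk1 differed by 2.96 and 2.55 at that time (adjusted p = 6.5e-06 and 3e-06), with no overlap. Cdk1 was named by the rule given for Bax, which asks for a call and no overlap at 20 weeks. With the macrophage marker mean as a covariate, 1 was higher and 2 lower at 8 weeks, 9 and 0 at 20 weeks, and 4 and 0 at 34 weeks. Which cells held these transcripts was not tested.

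Of 10 genes of the integrated stress response, which can also induce Gdf15, 9 were tested, and 1 was higher and 3 lower in HFD at 8 weeks, 2 and 2 at 20 weeks, and 0 and 2 at 34 weeks (medians −0.05, 0.01 and −0.27, beside 0.11, 0.14 and 0.07 for all genes). The shares of all genes called are those given for the p53 targets. With the macrophage covariate, 2 were higher and 3 lower, 1 and 2, and 0 and 0 by limma. The ATF4 target Asns, which makes asparagine, was at 103 to 187 CPM in CD and 46.7 to 79.6 in HFD mice at 20 weeks and differed by −1.25, −1.33 and −0.45 (adjusted p = 1.8e-05, 1.9e-06 and 0.051). The serine synthesis gene Phgdh differed by 0.31, −0.76 and −0.95 (adjusted p = 0.21, 0.0018 and 0.00027), and the pseudokinase gene Trib3 by 0.67, 0.98 and 0.48 (adjusted p = 0.014, 0.00035 and 0.06). Atf4 and Ddit3 differed by 0.02 and 0.01 at 20 weeks (adjusted p = 0.93 and 0.95). At 20 weeks Gdf15 was thus higher in HFD together with Trib3, while Asns and Phgdh were lower.

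Of 10 senescence-associated genes 9 were tested, and 3, 5 and 6 were higher and 0 lower in HFD at 8, 20 and 34 weeks. Over all genes, 29.8%, 38.3% and 27.5% were higher and 15.1%, 18.7% and 15.7% lower. The medians of the list were 0.33, 0.98 and 0.78, beside 0.11, 0.14 and 0.07 for all genes. With the macrophage covariate, 2, 2 and 1 were higher and 0, 1 and 0 lower, with medians of −0.26, 0.07 and 0.21. The cytokine gene Il1b stood at 14.3 to 169 CPM in CD and 306 to 1564 in HFD mice at 20 weeks (4.23 ± 0.85, adjusted p = 9.1e-05). Igfbp3, a secreted binding protein of insulin-like growth factors, differed by 2.09, 2.67 and 1.89 (adjusted p = 0.00028, 4.1e-06 and 0.00048), and Glb1, the lysosomal beta-galactosidase, by 0.73, 0.98 and 0.65 (adjusted p = 0.0011, 1.3e-05 and 0.0016). Of 2 genes picked after their values were seen, the cytokine gene Il6 stood at −0.86 at 20 weeks (adjusted p = 0.10) and was higher in HFD by 1.28 at 34 weeks (adjusted p = 0.0133). The other, Lmnb1, encodes a nuclear lamin that is known to be lost in senescent cells. It was higher in HFD by 0.98 at 20 and 1.17 at 34 weeks (adjusted p = 0.0119 and 0.00306). Lmnb1 belongs to this list, so the counts of higher genes at 20 and 34 weeks include a gene opposite to its known direction in senescence.

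**Figure D5:**
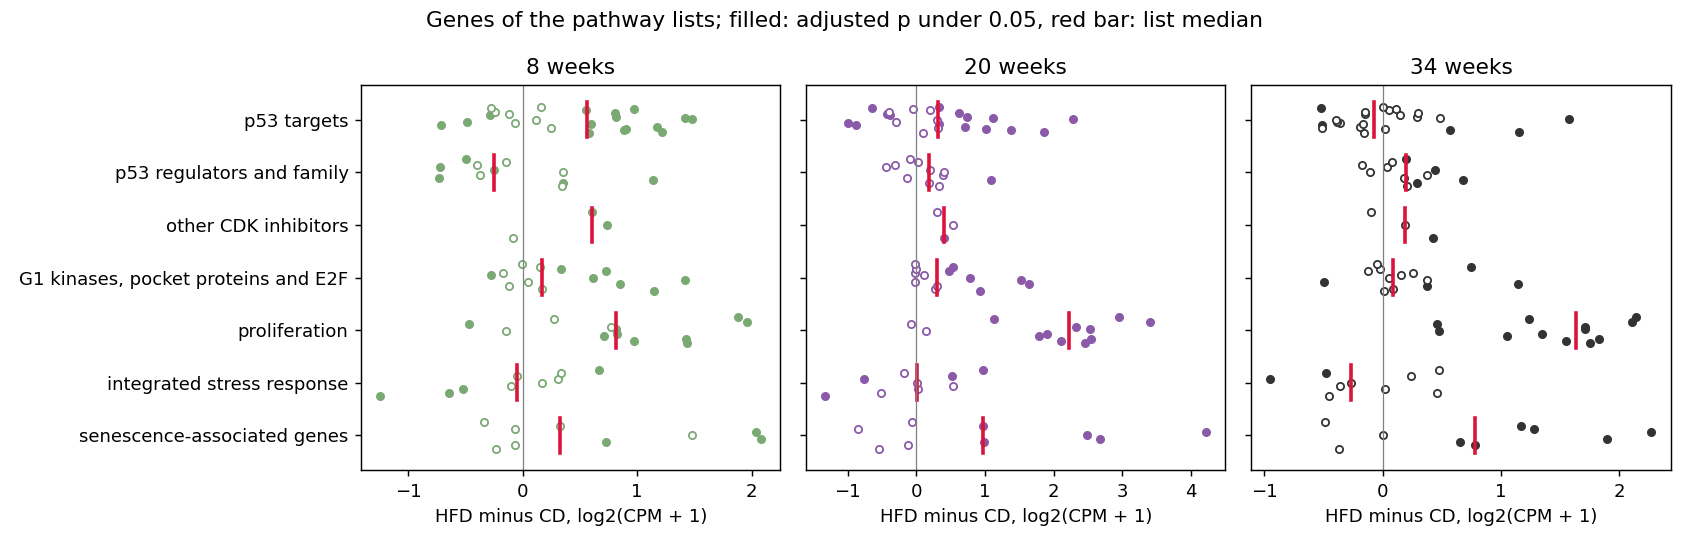
Diet difference (HFD minus CD, log2(CPM + 1), x axis) of each tested gene of the 7 lists at 8, 20 and 34 weeks, filled where the adjusted p was under 0.05, with the list median as a red bar. The median of the proliferation genes lies to the right of 0 at each time, with 1 gene called lower at 8 weeks. The p53 targets lie on both sides of 0, with medians of 0.56, 0.31 and −0.07.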

How the data were processed

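Perigonadal adipocyte RNA of 38 mice was sequenced from stranded poly(A) libraries. Per the study's methods and the submitters' processing notes, reads were aligned with STAR to mm10 and counted with featureCounts, and the 3 technical replicates of a mouse were merged. The deposited values are CPM (reads scaled to a total of 1000000 per mouse) that the authors computed. Their methods name TMM, but each column sums to 1000000, so the values were used as plain CPM. All low values (100.0%, within a tolerance of 0.1 read) were whole multiples of the CPM that 1 read is worth, 0.0646 to 0.108 by mouse, and the recovered reads served the edgeR 4.0.16 and DESeq2 1.42.0 alternatives. The precision of low genes follows from these reads.

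limma 3.58.1 in R 4.3.3 was fitted to log2(CPM + 1), with pseudocount 1, 6 diet and time groups, no block, 32 residual degrees of freedom before moderation and Benjamini-Hochberg adjustment over 10343 genes with a mean of at least 2.0. Cdkn2a, which was under the filter, and the cyclin shares had exact permutation tests, and correlations had permutation tests of 100000 resamples. Other genes under the filter are given from the limma fit without it. The limma fit was also run on simulated counts. In these, far fewer genes changed than were called here at 20 weeks, so that run is no check of the calls. Gene coordinates are from GENCODE on GRCm38, the build of mm10, and promoter windows from RefSeq. Named genes were the 10 members, their 2 most correlated genes, up to 3 genes of each list with the largest diet difference at 20 weeks among those called without overlap between the diets, and always Cdkn1b, Cdkn2b, Cdkn2d, Cdkn3, Mdm4, Trp63, Trp73, Cdk4, Cdk6, Rb1, Rbl1, Rbl2, Atf4, Ddit3, Mki67 and Top2a. Others are named as picked after their values were seen. The members, lists and tests were chosen with earlier results of these data known. Alternatives were TMM and median-of-ratios scaling, no filter, a pseudocount of 0.5, array weights, a macrophage covariate, a replicate block, mice of 1 time alone, count models and leaving out each mouse. Protein sequences and the genes Tigar, Pidd1 and Adgre1 were not analysed here.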

Additional observations from a re-analysis of the deposited data

Results flagged for a closer look

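Ccnd1 in CD mouse 5 at 34 weeks, at 55.4 CPM, lay far above the other 7 CD mice of that time, with a gap of 0.555 of the group's range against Dixon's critical value of 0.526. That mouse also had the highest macrophage marker mean of its group, at 9.24 on the log2 scale against 5.75 to 8.37 in the others, and the part of those cells in the value was not tested. Mdm2 in CD mouse 6 at 8 weeks, at 159 CPM, was the highest of its group (0.698 against 0.625), and Gdf15 in HFD mouse 4 at 20 weeks, at 69.6 CPM, the lowest of its group (0.707 against 0.625). In 60 groups tested this made 3 flags, where chance gives about 3.

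The diet difference changed between times by interaction test in 4 cases. For Ccnd2 it moved by −0.71 from 8 to 20 weeks (adjusted p = 0.0454) and by −0.72 from 8 to 34 weeks (adjusted p = 0.00741). For Ccnd3 it moved by −0.80 from 8 to 34 weeks (adjusted p = 0.000543) and for Trp53 by 0.97 (adjusted p = 0.00408).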

How the results depend on the processing

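Of 2679 values of single genes under the alternatives, 2548 kept their direction and side of the threshold. Of the rest, 76 lost their call, 25 of them with the macrophage covariate, 41 gained one and 14 changed sign. These values include fits that left out a mouse of a group not compared. There the difference could not change and only its p could, so part of the agreement was fixed in advance. The sign changed for Cdkn2c at 8 weeks with TMM (−0.10), median-of-ratios scaling (−0.11), edgeR (−0.10) and DESeq2 (−0.093), and it ranged from −0.042 to 0.065 without single mice, where the difference was 0.01. It also changed with the macrophage covariate for Ccnd1 from 8 to 34 weeks in CD (−0.071), Mdm2 at 8 weeks (−0.26) and 34 weeks (−0.13) and Gdf15 at 34 weeks (−0.74), and the cause was not tested.

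With that covariate the called members went from 6 to 2 at 20 weeks, from 6 to 1 at 34 weeks, from 7 to 1 from 8 to 20 weeks and from 5 to 0 from 8 to 34 weeks in HFD, from 1 to 3 from 20 to 34 weeks in HFD, and, for the change of the diet difference, from 1 to 0 from 8 to 20 weeks and from 0 to 2 from 20 to 34 weeks. Array weights gave 7 at 8 weeks, 2 from 8 to 20 weeks in CD, 4 from 20 to 34 weeks in HFD, and 5, 5 and 4 for the diet difference changes from 8 to 20, 8 to 34 and 20 to 34 weeks. Mice of that time alone gave 5 at 8 weeks and 3 at 34 weeks, where Cdkn1a, Cdkn2c and Ccnd2 lost their calls, and the cause was not tested. The change from 8 to 20 weeks was called for 2 genes with TMM, 2 with DESeq2, 0 without the filter and 0 with the replicate block, and that from 20 to 34 weeks for 1 with edgeR and 2 with DESeq2. Leaving out single mice gave 3 to 5 called at 8 weeks, 6 to 8 at 20 weeks, 5 to 7 at 34 weeks, and 0 to 2 for the change from 8 to 20 weeks and from 20 to 34 weeks. Ccnd2's change from 8 to 20 weeks kept a size of −0.75 to −0.65 when its own groups lost a mouse.

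Over all genes, the covariate brought the calls from 5894 to 2948 at 20 weeks, from 4468 to 741 at 34 weeks, from 370 to 719 from 8 to 20 weeks in CD, from 3772 to 510 from 8 to 20 weeks in HFD and from 5432 to 1141 from 8 to 34 weeks in HFD. Array weights gave 7032 at 8 weeks, 1543 from 8 to 20 weeks in CD, 6392 from 8 to 20 and 5016 from 20 to 34 weeks in HFD, and 4263 and 3407 for the diet difference changes from 8 to 20 and 20 to 34 weeks. Mice of 34 weeks alone gave 2457, and DESeq2 gave 590 from 8 to 20 weeks in CD and 851 for the change from 8 to 20 weeks. That change had 464 genes and between 196 and 1313 without single mice, with 1313 without CD mouse 1 of 20 weeks. The deviations of same-numbered mice of different groups had a median r of −0.068 (90 pairs, r from −0.676 to 0.550, 30 over 0.1). Mice of different numbers were not compared, so a batch shared by number was not tested, and the mice were taken as unpaired. Library depth limits Cdkn2a most, with at most 41 reads in a mouse.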

Other observations

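Within groups, several members rose and fell together from mouse to mouse. These 45 pairs were examined after the values were seen, over 38 mice as deviations from group means, with permutation p adjusted over the pairs, and 16 of them had an adjusted p under 0.05. The share of pairs among all genes that would pass was not counted. Genes outside the set also went closely with members, so nothing particular to the set is read from this count. Cdkn1a and Gdf15 had Pearson's r = 0.83 and Spearman's rho = 0.80 (adjusted permutation p = 0.00015). Without the 2 mice farthest from the median deviation of the first gene named, here Cdkn1a, r was 0.75. These mice were chosen by the first gene of each pair, so they can differ between pairs. Cdkn1a and Mdm2 had 0.80 and 0.75, and 0.73 without the 2 mice chosen by Cdkn1a. Mdm2 and Gdf15 had 0.79 and 0.72, and 0.73 without the 2 chosen by Mdm2, and both pairs had the same adjusted permutation p. Trp53 went with Mdm2 at 0.75 and 0.79 (adjusted permutation p = 0.000225), and r was 0.81 without the 2 chosen by Trp53. Cdkn2c went against Trp53 at −0.62 and −0.58 (adjusted permutation p = 0.00796), and r was −0.54 without the 2 chosen by Cdkn2c. Since Cdkn1a, Mdm2 and Gdf15 also followed the macrophage markers, what the pairs share beyond these was not tested.

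The p53 target Plk2, a stress-induced kinase gene picked after its values were seen, differed by 1.48, 2.28 and 1.57 at 8, 20 and 34 weeks (adjusted p = 0.0269, 0.000647 and 0.0131), and its CD and HFD mice overlapped at each time.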
